A study of Mus musculus with 4 samples.

Results

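The genes described here carry the symbols given to nuclear subunits of respiratory complexes II, III and IV and of the ATP synthase (complex V). They were all rows with library values whose symbol matched Sdha to Sdhd, any name starting with Uqcr, Cox4 to Cox8 followed by 1 letter and any digits, or Atp5 followed by 1 letter and any digits. The rule found 36 of the 9244 genes with library values. By symbol, 4 were counted under complex II, 8 under complex III, 11 under complex IV and 13 under the ATP synthase. RNA came from long-term haematopoietic stem cells (LT-HSCs), from which every blood lineage can be renewed, of C57BL/6 mice aged 8 to 12 weeks. They had been sorted for the LSK surface pattern (no lineage markers, Sca-1 and Kit present) without CD34 or Flk2. The Sin3B KO group, cells labelled as knockout for Sin3B, had 2 libraries, and the WT group, cells of the same strain and sort, had 2 libraries (n = 2 per group throughout). Sin3B holds together co-repressor complexes that contain histone deacetylases. The sources used here do not give how the gene was deleted, or how many mice went into a library. The p-values therefore reflect spread among 4 libraries that may differ for technical reasons alone.

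Respiratory complexes pass electrons from fuel molecules to oxygen, those other than complex II pump protons across the inner mitochondrial membrane, and the ATP synthase uses that gradient to make ATP. Complex II, succinate dehydrogenase, also belongs to the citric acid cycle and has all its subunits encoded in the nucleus. Complexes III and IV and the ATP synthase also need subunits made from mitochondrial DNA. Quiescent haematopoietic stem cells are known for relying strongly on glycolysis, yet mouse stem cells that lack a subunit of complex II or III do not sustain normal blood formation.

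Values are normalised counts, that is, reads of a gene divided by 1 size factor per library. If the smallest step of the values is 1 read, which is an assumption, the listed genes held 12637960 and 13700630 reads in Sin3B KO 1 and 2, and 9950979 and 11754067 reads in WT 1 and 2. Sin3b, the targeted gene, was at 755.4 and 646.5 in the Sin3B KO libraries, against 1522 and 1825 in the WT libraries, so reads were fewer but not gone. Its log2 fold change, Sin3B KO over WT, was -1.25 (SE 0.22) with an adjusted p of 0.548 (limma, Benjamini-Hochberg), and the authors' deposited table gives -1.03 with an adjusted p of 0.00249. All 10 marker genes of long-term stem cells on the list used here were measured, among them Kit at 20868 and 19845 in Sin3B KO and 22329 and 17785 in WT cells. Their groups overlapped in 7 of the 10, and the markers were not level throughout. Fgd5 was at 256.6 and 643.0 in Sin3B KO cells, against 710.3 and 1240.3 in WT cells (log2 fold change -1.21, SE 0.44), and Hlf at 5353 and 7054 in Sin3B KO cells, against 8877 and 7805 in WT cells (-0.44, SE 0.21). For both, both Sin3B KO values were below both WT values, as for 19.4% of all genes. For Ly6a, which encodes Sca-1, both were above, as for 24.7% of all genes. None of the 10 passed. RNA of the 2 genes whose proteins the sort excludes was also read: Cd34 was at 5623 and 5133 in Sin3B KO and 6508 and 4945 in WT cells, and Flt3 (Flk2) at 830.4 and 354.0 in Sin3B KO and 1170 and 371.9 in WT cells. The 4 muscle genes on the list had no library values. In such bulk samples, fewer cells of a type and less RNA per cell cannot be told apart.

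Of the 4 complexes, complex II had the highest median level in Sin3B KO cells relative to WT. For all 4 genes both Sin3B KO values were above both WT values, an arrangement that 24.7% of all genes had (19.4% had the opposite one). Their median log2 fold change was 0.40 (1.32-fold), against 0.03 over all genes tested. All fold changes are on the scale of log2(value + 1). None of the 4 passed the threshold, a Benjamini-Hochberg adjusted p under 0.05 in limma, which 0% of all genes passed in either direction; 824 of 9244 genes were under an unadjusted p of 0.05. Sdhb and Sdha were among them, as were 4.97% of all genes in the higher and 3.95% in the lower direction. Leaving out 1 library at a time, the median of complex II stayed between 0.28 and 0.54. WT 1 held the lowest value of all 4 genes. Without WT replicate 1 the log2 fold change was 0.47 for Sdhb, 0.36 for Sdha, 0.20 for Sdhd and 0.12 for Sdhc, and without WT replicate 2 it was 0.67, 0.53, 0.53 and 0.54 for the same genes. Without Sin3B KO replicate 1 that of Sdhd was 0.20.

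Sdhb (ENSMUSG00000009863), the iron-sulphur subunit that carries electrons from the flavin to ubiquinone, had 2993 and 2771 normalised counts in Sin3B KO cells, against 1805 and 2084 in WT cells. The Sin3B KO libraries were close to each other and clear of both WT libraries. Its log2 fold change was 0.57 (SE 0.19, 95% confidence interval 0.13 to 1.01), with an adjusted p of 0.548 (limma, Benjamini-Hochberg). Sdha (ENSMUSG00000021577), the flavoprotein that oxidises succinate, had 11134 and 9730 in Sin3B KO cells, against 7197 and 8132 in WT cells. The groups did not overlap, and the log2 fold change was 0.44 (SE 0.19, interval 0.01 to 0.87, limma Benjamini-Hochberg adjusted p = 0.548). Sdhd (ENSMUSG00000000171), a membrane anchor, had 5902 and 4684 in Sin3B KO cells, against 3643 and 4581 in WT cells. Here the gap was narrow, since Sin3B KO 2 and WT 2 differed by little (log2 fold change 0.36, SE 0.21, limma Benjamini-Hochberg adjusted p = 0.581). Sdhc (ENSMUSG00000058076), the other anchor, had 2699 and 2949 in Sin3B KO cells, against 1943 and 2592 in WT cells (log2 fold change 0.33, SE 0.21, limma Benjamini-Hochberg adjusted p = 0.6). For Sdhb and Sdha the authors' deposited table lists log2 fold changes of 0.49 (adjusted p = 0.3) and 0.40 (adjusted p = 0.41).

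**Figure D1:**
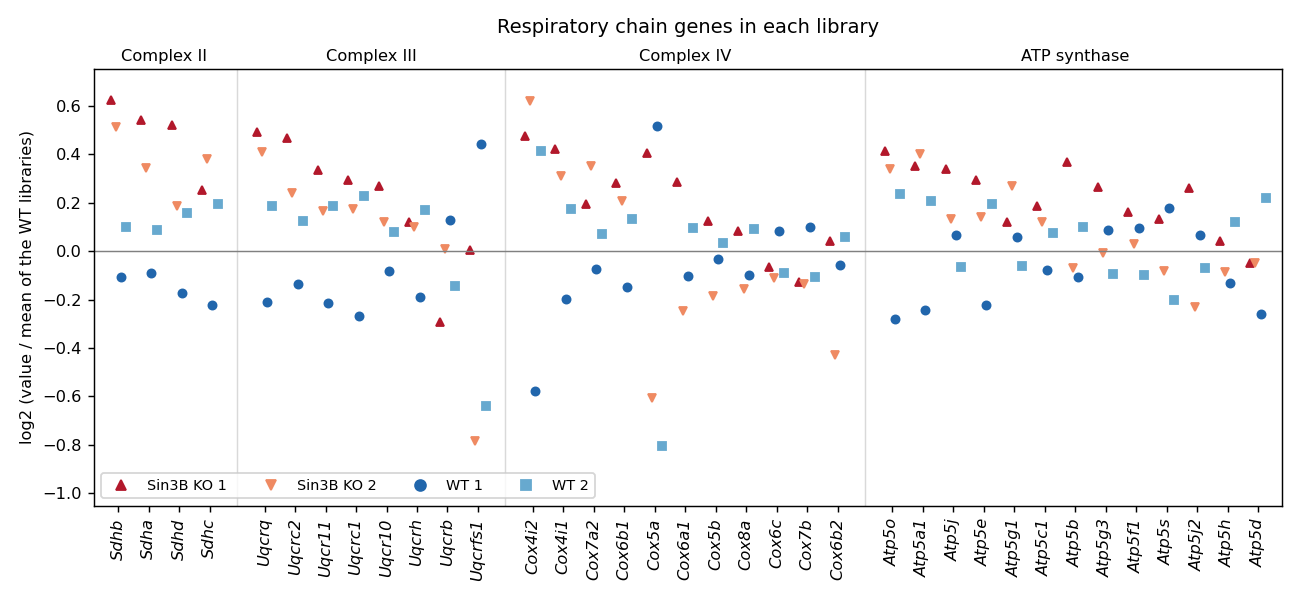
Normalised count of each of the 36 genes in each library, as log2 of the value over the mean of the 2 WT libraries; genes are grouped by complex and ordered by fold change. Triangles are Sin3B KO libraries, circles and squares WT libraries, and for each complex II gene both triangles lie above both WT points.

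As complex II genes lay together, their promoters are shown, 250 bases before to 50 after the start site in RefSeq on GRCm38.p6. Capitals mark matches on either strand to GCGCNTGCGC, the core of the NRF1 site, and to CCGGAAG, the core of the ETS site that GABP reads. NRF1 and GABP are known regulators of nuclear respiratory genes. A match on the opposite strand reads as the reverse complement. Sdha (chr13:74350191-74350490, minus strand), Sdhb (chr4:140961021-140961320, plus strand) and Sdhd (chr9:50603800-50604099, minus strand) have 1 window each:
Sdha: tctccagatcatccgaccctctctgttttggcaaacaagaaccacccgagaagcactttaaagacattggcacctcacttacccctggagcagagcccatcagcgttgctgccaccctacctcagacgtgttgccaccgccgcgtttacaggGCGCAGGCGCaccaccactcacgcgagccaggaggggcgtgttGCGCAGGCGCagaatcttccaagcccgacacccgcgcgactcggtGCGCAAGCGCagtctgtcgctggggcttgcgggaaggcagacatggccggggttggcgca
Sdhb: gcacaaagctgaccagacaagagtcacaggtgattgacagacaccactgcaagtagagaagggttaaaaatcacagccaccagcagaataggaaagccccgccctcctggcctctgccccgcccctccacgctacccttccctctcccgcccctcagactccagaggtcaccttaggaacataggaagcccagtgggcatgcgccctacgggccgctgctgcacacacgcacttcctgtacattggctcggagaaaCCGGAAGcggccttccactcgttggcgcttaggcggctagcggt
Sdhd: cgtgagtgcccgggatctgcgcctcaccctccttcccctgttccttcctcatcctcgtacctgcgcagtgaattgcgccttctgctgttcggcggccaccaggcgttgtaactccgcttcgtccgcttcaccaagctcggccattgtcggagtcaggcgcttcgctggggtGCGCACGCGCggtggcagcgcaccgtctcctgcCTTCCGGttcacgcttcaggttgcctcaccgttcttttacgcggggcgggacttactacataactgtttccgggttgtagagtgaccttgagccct
Sdha held 3 NRF1 matches, whose first bases lay at -98, -55 and -10 from the start site. Sdhb held 1 GABP match, at 7 after the start, and no NRF1 match. Sdhd held 1 of each, NRF1 at -79 and GABP at -46.

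Promoter windows were at hand for 26 of the 36 genes, 29 windows in all. An NRF1 match was in 8 of the 26 genes (30.8%), against 12.8% of the 7079 genes with library values and a window and 5.19% of all 27025 genes in the table. A GABP match was in 10 of 26 (38.5%), against 22.5% and 9.93%. ATGGCGG, the core of the YY1 site, was in 2 of 26 (7.69%), against 10.6% and 4.69%, and the CCAAT box in 16 of 26 (61.5%), against 43.2% and 41.1%. Matches of NRF1, GABP and YY1 did not overlap each other in these windows. By complex, genes with an NRF1 match numbered 2 of 3 in complex II, 1 of 5 in complex III, 1 of 8 in complex IV and 4 of 10 in the ATP synthase. A match is a string of letters, not a measured binding site.

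Summed over its genes, complex II held 0.187% and 0.165% of the signal of all listed genes in Sin3B KO 1 and 2, against 0.129% and 0.15% in WT 1 and 2, so the groups did not overlap. For complexes III and IV and the ATP synthase they did. Complex III held 0.128% and 0.115% in Sin3B KO cells, against 0.0986% and 0.121% in WT cells. Complex IV held 0.130% and 0.113% in Sin3B KO cells, against 0.105% and 0.118% in WT cells, and the ATP synthase 0.354% and 0.322% in Sin3B KO cells, against 0.281% and 0.330% in WT cells. In these 3 complexes Sin3B KO 2 lay below WT 2 and above WT 1. The separation was not particular to complex II. The measured genes on the complex I list, described below, held 0.384% and 0.366% in Sin3B KO cells, against 0.294% and 0.359% in WT cells. Their groups did not overlap either. Differences between complexes were not tested.

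**Figure D2:**
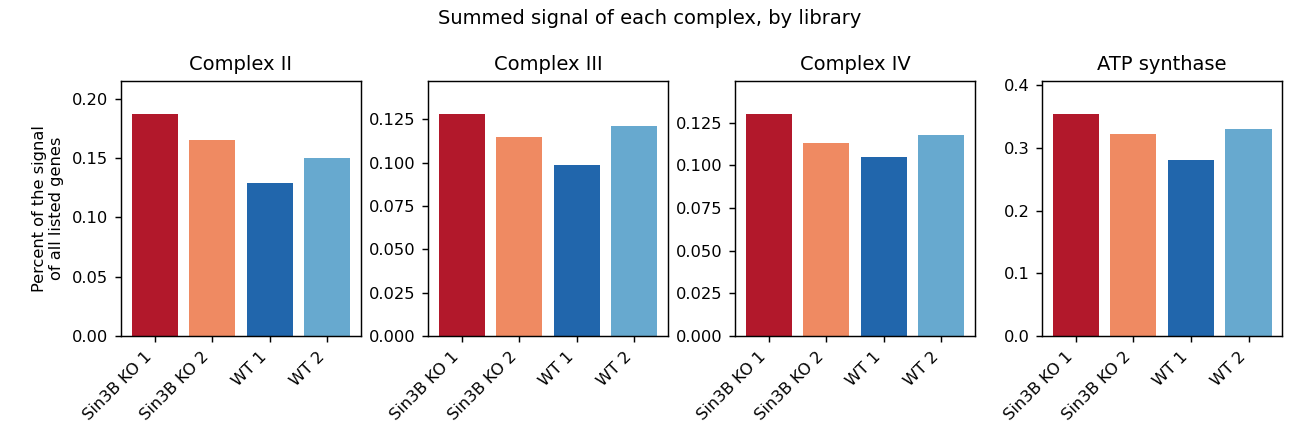
Summed signal of the genes of each complex as a percentage of the signal of all listed genes, 1 bar per library; each panel has its own axis, starting at 0. For complex II both Sin3B KO bars (0.187% and 0.165%) stand above both WT bars (0.129% and 0.15%), while WT 2 lies above Sin3B KO 2 for the other complexes.

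Complex III passes electrons from ubiquinol to cytochrome c. Of its 8 measured genes, 6 had a log2 fold change above 0, as had 53.4% of all genes. In 3 of the 8 the Sin3B KO values both exceeded the WT values (24.7% of all genes), and in 0 both were lower (19.4%). The median log2 fold change was 0.23. Without WT replicate 1 it was 0.09, without WT replicate 2 it was 0.38, and without Sin3B KO replicate 1 it was 0.15. No gene passed.

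Uqcrq, a small membrane subunit, had 1161 and 1098 normalised counts in Sin3B KO cells, against 713.7 and 939.6 in WT cells. Both Sin3B KO libraries lay above both WT libraries (log2 fold change 0.46, SE 0.23, limma Benjamini-Hochberg adjusted p = 0.550). The core proteins Uqcrc1 and Uqcrc2 face the matrix and are related to processing peptidases. Uqcrc2 had 3062 and 2616 in Sin3B KO cells, against 2015 and 2413 in WT cells (log2 fold change 0.36, SE 0.20). Uqcrc1 had 7658 and 7061 in Sin3B KO cells, against 5197 and 7320 in WT cells (log2 fold change 0.25, SE 0.22), and here WT 2 lay between the Sin3B KO libraries. Uqcr10, the subunit with the highest level per kilobase of exon in this complex, had 1235 and 1112 in Sin3B KO cells, against 968.0 and 1080.1 in WT cells (log2 fold change 0.20, SE 0.21). Uqcrh, the acidic hinge protein near cytochrome c1, had 1225 and 1207 in Sin3B KO cells, against 988.5 and 1268 in WT cells. Its log2 fold change of 0.12 (SE 0.22) was the nearest to 0 in this complex, with a confidence interval of -0.38 to 0.62 that leaves changes of either sign possible. Uqcr11, a small subunit, was at 440.2 and 390.6 in Sin3B KO cells, against 301.0 and 396.6 in WT cells. Uqcrb, known as the ubiquinone-binding protein, was at 295.1 and 363.8 in Sin3B KO cells, against 395.6 and 327.4 in WT cells. For Uqcrc2, Uqcrc1, Uqcr10 and Uqcrh the limma Benjamini-Hochberg adjusted p lay between 0.569 and 0.853. WT 1 weighed on these values. Without WT replicate 1 the log2 fold change was 0.01 for Uqcrc1, 0.26 for Uqcrq, 0.23 for Uqcrc2 and 0.12 for Uqcr10, and without WT replicate 2 it was 0.50, 0.66, 0.49 and 0.28 for the same genes.

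Uqcrfs1, the Rieske iron-sulphur protein, differed more between library numbers than between genotypes. It had 452.7 and 262.2 normalised counts in Sin3B KO 1 and 2, against 612.3 and 289.8 in WT 1 and 2. The libraries numbered 1 were thus 1.72-fold higher than those numbered 2 in Sin3B KO cells and 2.11-fold higher in WT cells. Cox5a, a matrix-side subunit of complex IV, showed the same arrangement, with 610.3 and 303.2 in Sin3B KO cells, against 659.0 and 264.1 in WT cells. The number 1 library was 2.01-fold higher in Sin3B KO cells and 2.49-fold higher in WT cells. These 2 genes, singled out after their values were seen, were the members over 1.5-fold higher in number 1 in both genotypes, as were 3.23% of all genes. No member was over 1.5-fold lower in number 1 in both genotypes, as 2.39% of all genes were. Their log2 fold changes between genotypes were -0.29 (SE 0.42) for Uqcrfs1 and 0.04 (SE 0.48) for Cox5a.

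The summed level of 10 neutrophil and myeloid marker genes also went with the library number, at 52964 and 23569 in Sin3B KO 1 and 2 and 74466 and 14386 in WT 1 and 2, with no gene at 0 in any library. That of the 6 measured of 8 B lineage genes was 4465 and 1703 in Sin3B KO cells, against 3809 and 1503 in WT cells, again with none at 0. The part of these cells in the values of Uqcrfs1 and Cox5a was not tested. The promoter windows of both genes held no NRF1, GABP or YY1 match. Of the 26 genes with a window, 10 held none of these matches, both genes among them. By complex, genes with none numbered 0 of 3 in complex II, 2 of 5 in complex III, 5 of 8 in complex IV and 3 of 10 in the ATP synthase. The windows shown are those of Uqcrfs1 (chr13:30545267-30545566, minus strand) and Cox5a (chr9:57520982-57521281, plus strand), both on GRCm38.p6:
Uqcrfs1: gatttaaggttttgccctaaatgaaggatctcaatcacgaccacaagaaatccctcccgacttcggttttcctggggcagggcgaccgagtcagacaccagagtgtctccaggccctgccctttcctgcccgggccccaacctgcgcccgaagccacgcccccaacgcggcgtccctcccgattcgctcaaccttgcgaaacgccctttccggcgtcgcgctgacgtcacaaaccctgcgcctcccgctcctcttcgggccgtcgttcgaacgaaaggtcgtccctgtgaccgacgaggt
Cox5a: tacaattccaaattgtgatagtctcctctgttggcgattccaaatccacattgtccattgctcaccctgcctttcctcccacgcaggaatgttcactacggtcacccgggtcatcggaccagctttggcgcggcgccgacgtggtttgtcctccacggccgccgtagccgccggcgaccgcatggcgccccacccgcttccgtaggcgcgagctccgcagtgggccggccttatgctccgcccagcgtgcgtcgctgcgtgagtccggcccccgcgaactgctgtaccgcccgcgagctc
The absence of these letters in the windows says nothing of the factors.

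**Figure D3:**
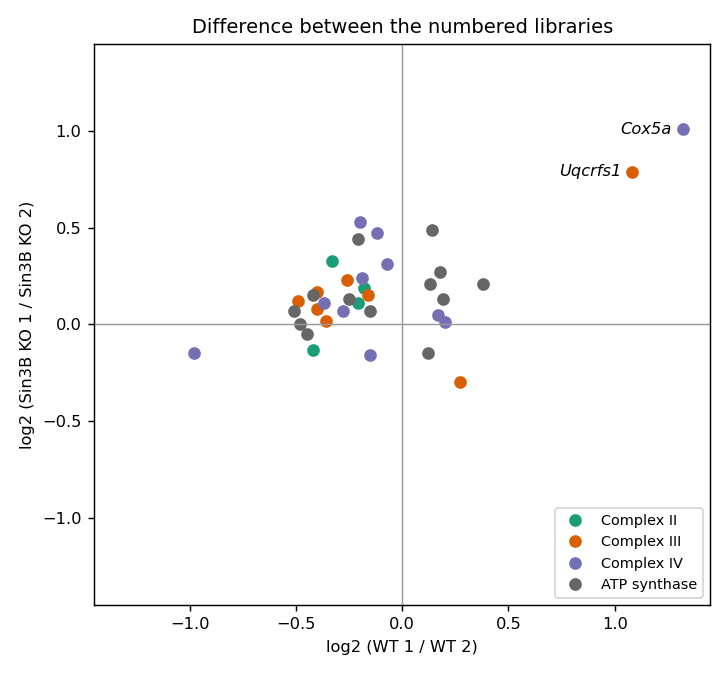
Difference between the libraries numbered 1 and 2 for each of the 36 genes, in Sin3B KO cells (vertical axis) and in WT cells (horizontal axis), both as log2 ratios, coloured by complex. Cox5a (1.01 in Sin3B KO, 1.32 in WT) and Uqcrfs1 (0.79 in Sin3B KO, 1.08 in WT) stand apart from the others at the upper right.

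Complex IV, cytochrome c oxidase, hands electrons to oxygen. Its 11 measured nuclear genes went both ways, with 6 above 0 (53.4% of all genes) and 5 below. The median log2 fold change was 0.02. In 4 genes the Sin3B KO values both exceeded the WT values (24.7% of all genes), and in 1 both were lower (19.4%). No gene passed. The median was -0.13 without Sin3B KO replicate 1, 0.20 without Sin3B KO replicate 2, 0.00 without WT replicate 1 and 0.06 without WT replicate 2. It was below 0 under 2 other scalings, at -0.06 (total) and -0.09 (upper quartile), where the median of all genes was -0.05 and -0.08, and no direction is given for this complex.

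Cox4i1, the largest nuclear subunit and the main form of subunit 4, had 8149 and 7540.0 normalised counts in Sin3B KO cells, against 5295 and 6864 in WT cells. The groups did not overlap (log2 fold change 0.38, SE 0.20, limma Benjamini-Hochberg adjusted p = 0.561). Cox4i2, the form of subunit 4 tied to hypoxia and to lung, was near the lower limit of the table, with 139.4 and 154.3 in Sin3B KO cells, against 67.3 and 133.5 in WT cells. Its log2 fold change of 0.62 (SE 0.57) had the widest confidence interval of the 36 genes, from -0.66 to 1.91. Per kilobase of exon, Cox4i2 made up 3.25% and 3.87% of the pair in Sin3B KO cells, against 2.44% and 3.69% in WT cells, so the 2 groups overlapped.

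Cox6b1, the general form of a subunit on the intermembrane side, had 1014 and 963.1 in Sin3B KO cells, against 753.6 and 914.9 in WT cells (log2 fold change 0.25, SE 0.22). Cox6b2, known as its testis form, had 509.4 and 368.3 in Sin3B KO cells, against 475.4 and 515.3 in WT cells (log2 fold change -0.19, SE 0.28). Reads of Cox6b2 were thus found in all 4 libraries of these blood stem cells. Per kilobase of exon it made up 24.3% and 19.6% of the pair in Sin3B KO cells, against 28.7% and 26.5% in WT cells. Both Sin3B KO shares were below both WT shares, and the difference in shares was not tested.

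Cox7a2, the form of subunit 7a found in most tissues, had 575.7 and 641.2 in Sin3B KO cells, against 477.7 and 529.2 in WT cells (log2 fold change 0.27, SE 0.24). Cox6a1, the general form of subunit 6a, had 2142 and 1483 in Sin3B KO cells, against 1638 and 1880.2 in WT cells. The Sin3B KO libraries bracketed both WT libraries, and the log2 fold change was 0.02 (SE 0.23, interval -0.51 to 0.55). Cox7b was the member with both Sin3B KO values below both WT values, at 414.2 and 412.0 in Sin3B KO cells against 484.6 and 420.4 in WT cells. Both Sin3B KO values were above both WT values for Cox4i1, Cox4i2, Cox6b1 and Cox7a2. The groups overlapped for Cox8a, Cox5b and Cox6c. Cox8a, a small membrane subunit, was at 1796 and 1522 in Sin3B KO cells, against 1587 and 1810.0 in WT cells. Cox5b, which binds zinc, was at 184.5 and 148.9 in Sin3B KO cells, against 165.3 and 173.1 in WT cells, and Cox6c at 266.2 and 257.7 in Sin3B KO cells, against 295.3 and 262.1 in WT cells. For Cox4i2, Cox6b1, Cox6b2, Cox7a2 and Cox6a1 the limma Benjamini-Hochberg adjusted p lay between 0.687 and 0.977. Without WT replicate 1 the log2 fold change was 0.19 for Cox4i1, 0.13 for Cox4i2 and 0.11 for Cox6b1, and without WT replicate 2 it was 0.57, 1.11 and 0.39 for the same genes.

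The ATP synthase has a catalytic F1 head in the matrix and a membrane part, Fo, that conducts protons. Of its 13 measured genes, 11 had a log2 fold change above 0, as had 53.4% of all genes. In 5 the Sin3B KO values both exceeded the WT values (24.7% of all genes), and in 0 both were lower (19.4%). The median log2 fold change was 0.15. It was 0.03 when Sin3B KO 1 was left out and 0.26 when Sin3B KO 2 was. No gene passed.

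In the F1 head, Atp5a1, the alpha subunit, had 16371 and 16954 normalised counts in Sin3B KO cells, against 10861 and 14817 in WT cells. The groups did not overlap, and Atp5a1 had the highest level per kilobase of the 36 genes in both genotypes (log2 fold change 0.39, SE 0.21, limma Benjamini-Hochberg adjusted p = 0.562). Its partner Atp5b, the catalytic beta subunit, had 11337 and 8376 in Sin3B KO cells, against 8158 and 9437 in WT cells, so its groups overlapped. Atp5c1, the gamma subunit of the rotating stalk, had 2262 and 2162 in Sin3B KO cells, against 1885 and 2089.9 in WT cells. Both Sin3B KO values lay above both WT values by a small margin. Atp5d, the delta subunit, had 3028 and 3022 in Sin3B KO cells, against 2617 and 3644 in WT cells. Atp5e, the epsilon subunit, had 1326 and 1195 in Sin3B KO cells, against 926.9 and 1238 in WT cells. All 5 of these F1 genes had their lowest value in WT 1.

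Atp5o encodes OSCP, which joins the head to the outer stalk. It had 1119 and 1063 in Sin3B KO cells, against 692.1 and 989.1 in WT cells, and the groups did not overlap (log2 fold change 0.40, SE 0.24, limma Benjamini-Hochberg adjusted p = 0.591). Atp5j, the stalk subunit F6, had 2076 and 1800 in Sin3B KO cells, against 1717 and 1567 in WT cells (log2 fold change 0.24, SE 0.20). Atp5j2, the membrane subunit f, had 619.9 and 441.4 in Sin3B KO cells, against 542.7 and 493.5 in WT cells. The Sin3B KO values bracketed those of WT (log2 fold change 0.02, SE 0.27, interval -0.60 to 0.63).

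Subunit c of the proton-conducting ring is encoded by several genes whose mature proteins are the same. Atp5g3 had 2305 and 1906 in Sin3B KO cells, against 2039 and 1796 in WT cells (log2 fold change 0.13, SE 0.20). Atp5g1 had 201.8 and 223.8 in Sin3B KO cells, against 193.8 and 178.0 in WT cells (log2 fold change 0.19, SE 0.38). Atp5g2, of the same family, had no library values. Per kilobase of exon, Atp5g1 made up 3.74% and 4.96% of the pair in Sin3B KO cells, against 4.05% and 4.22% in WT cells, and the groups overlapped. These shares rest on exon lengths merged over all annotated transcripts, 4912 bases for Atp5g1 and 2181 for Atp5g3. The remaining genes were Atp5f1 (subunit b of the outer stalk), Atp5h (its subunit d) and Atp5s, also called factor B, which was counted here by its symbol alone. Atp5f1 had 1526 and 1390.3 in Sin3B KO cells, against 1456 and 1272 in WT cells. Atp5h had 430.6 and 393.3 in Sin3B KO cells, against 382.0 and 454.0 in WT cells, and Atp5s had 451.7 and 389.7 in Sin3B KO cells, against 466.3 and 359.0 in WT cells. In these 3 genes the groups overlapped. For Atp5j, Atp5j2, Atp5g3 and Atp5g1 the limma Benjamini-Hochberg adjusted p lay between 0.667 and 0.987. Without WT replicate 1 the log2 fold change was 0.17 for Atp5a1 and 0.14 for Atp5o, and without WT replicate 2 it was 0.62 and 0.66. That of Atp5j was 0.13 when Sin3B KO 1 was left out and 0.34 when Sin3B KO 2 was.

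**Figure D4:**
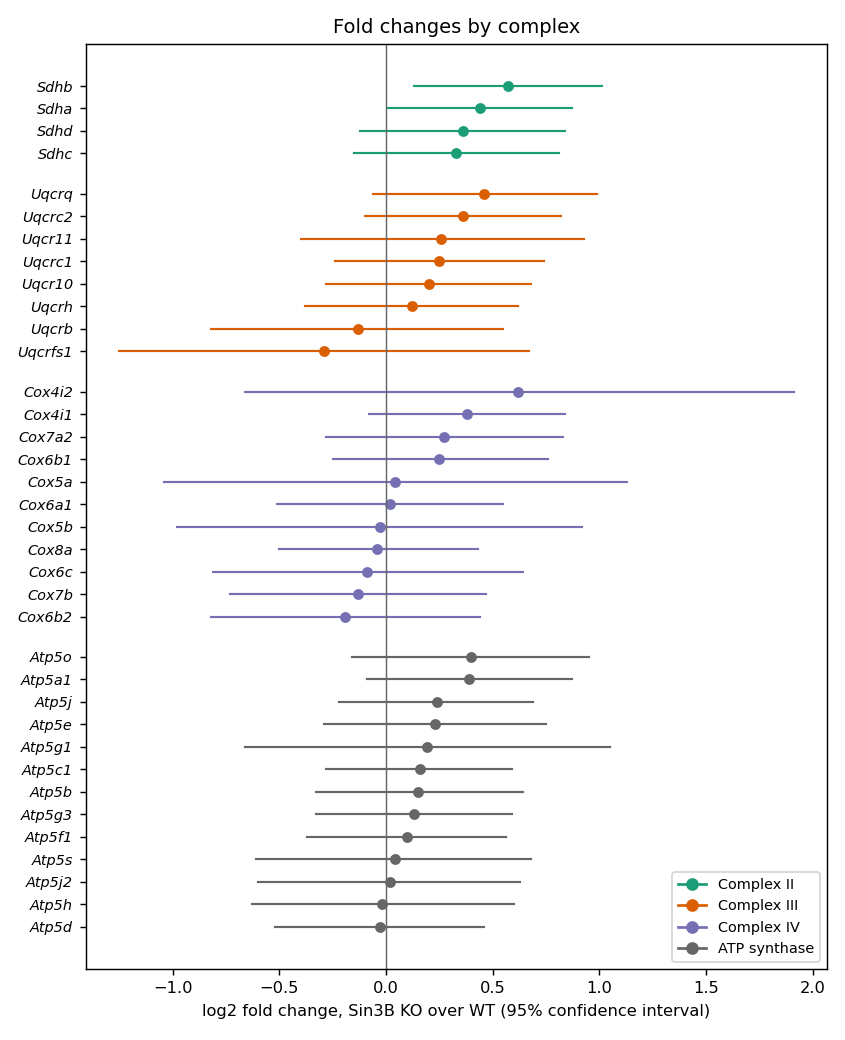
Log2 fold change, Sin3B KO over WT, of each of the 36 genes (points) with its 95% confidence interval (lines) from limma, grouped by complex. The intervals of Sdhb (0.13 to 1.01) and Sdha (0.01 to 0.87) lie above 0 before adjustment over all genes, and those of the other genes include 0.

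Across the 36 genes, 27 had a log2 fold change above 0, as had 53.4% of all genes. The median was 0.17 (1.13-fold), against 0.03 over all genes. With scaling by the total, 23 of the 36 were above 0 (44.2% of all genes). With upper quartile scaling 22 were (41.5% of all genes). Without Sin3B KO replicate 2 the median was 0.27 and 32 were above 0, and without Sin3B KO replicate 1 it was 0.12 with 22 above 0. In 16 genes (44.4%) the Sin3B KO values both exceeded the WT values, against 24.7% of all genes. In 1 both were lower, against 19.4% of all genes. In the authors' deposited table, 0 of the 36 genes had an adjusted p under 0.05, against 0.206% of all genes with library values that were higher and 0.119% that were lower in Sin3B KO cells. At an unadjusted p under 0.05 the authors' deposited table had Sdhb and Sdha, both higher, beside 5.56% of all genes higher and 4.2% lower. The half-width of a gene's confidence interval here had a median of 0.51 on the log2 scale and ranged from 0.43 to 1.29.

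The position of WT 1 recurred. This library, which had the fewest reads, held the lowest of the 4 values in 21 of the 36 genes (58.3%), against 30.6% of all genes. WT 1 also had the highest summed level of the myeloid markers given above. Sin3B KO 1 held the highest in 20 of 36 (55.6%), against 26.1% of all genes. The 7 measured of 9 erythroid marker genes summed to 17840 and 6897 in Sin3B KO cells, against 7720 and 5240 in WT cells, so their sum too was highest in Sin3B KO 1. All 7 had a log2 fold change above 0 (53.4% of all genes), the direction of most of the respiratory genes. In 3 of them, Gata1, Car1 and Epor, both Sin3B KO values were above both WT values (24.7% of all genes). Gata1, the erythroid and megakaryocyte transcription factor, was at 3144 and 1842 in Sin3B KO cells, against 1004 and 1063 in WT cells (log2 fold change 1.22, SE 0.27). The log2 fold change was 1.06 (SE 0.38) for Car1, a carbonic anhydrase, and 0.50 (SE 0.25) for Epor, the erythropoietin receptor. Alas2 and Slc4a1 were highest in WT 1, and none of the 7 passed. Of these genes Slc4a1 was listed at 0 in WT 2, and no other was at 0. The part of erythroid or myeloid cells in the respiratory values was not tested. The 36 genes were short, with a median of 1870 exon bases against 4664 over all genes with a length. After the trend of fold change over exon length was subtracted, the median was 0.07 over the 36 genes, 0.32 for complex II, 0.07 for complex III, -0.14 for complex IV and 0.04 for the ATP synthase, against 0.01 over all genes.

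Within each complex the mean levels per kilobase of exon differed between genes. In Sin3B KO cells they went from 869 for Sdhc to 4300 for Sdhd in complex II, and in WT cells from 698 to 3340 for the same genes. Within the ATP synthase they ranged from 43.3 for Atp5g1 to 5315 for Atp5a1 in Sin3B KO cells, and from 37.9 to 4095 in WT cells. In complex IV the range was 73.4 for Cox6c to 5061 for Cox4i1 in Sin3B KO cells, and 78.1 to 3922 in WT cells. In complex III it was 262 for Uqcrfs1 to 2010 for Uqcr10 in Sin3B KO cells; in WT cells the lowest was Uqcrfs1 as well, at 331, and the highest Uqcr10, at 1754. Exon lengths merge all annotated transcripts of a gene, 4912 bases for Atp5g1 and 3567 for Cox6c, whichever of them the cells use.

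**Figure D5:**
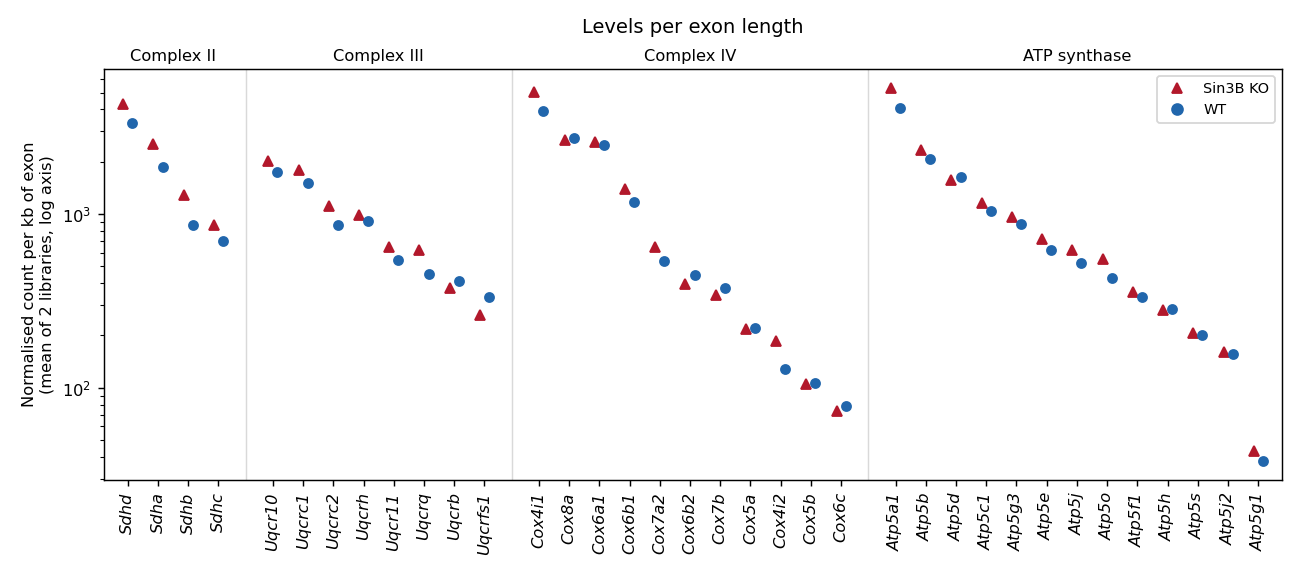
Mean normalised count per kilobase of exon for each of the 36 genes on a log axis, Sin3B KO (triangles) and WT (circles), grouped by complex and ordered by the Sin3B KO level. Atp5a1, Cox4i1 and Sdhd have the highest levels, and Atp5g1 and Cox6c the lowest.

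Some values may hold reads of other genes, since no source used here gives the handling of strand or of repeated matches. Annotated transcripts of other genes that matched the longest coding transcript at 95% identity or more over at least 50% of its length were all pseudogenes, 3 each for Atp5h and Uqcrb and 1 for Atp5o. On the opposite strand, exons of Pdzd9 covered 19.75% of the exon bases of Uqcrc2. Antisense RNAs covered up to 18.05% of those of Atp5o, Emc8 9.94% of those of Cox4i1, and Gabpa, which encodes the DNA-binding part of GABP, 12.68% of those of Atp5j. The non-coding Gm26631 covered 12.8% of those of Cox5a. Other opposite-strand overlaps, on Atp5f1, Cox6c, Uqcrb, Atp5a1 and Atp5d, were each at most 8.21%. On the same strand, another protein-coding entry, also named Atp5o, covered 12.32% of the exon bases of Atp5o. The values of these genes are therefore uncertain. The percentages are shares of exon bases, and the share of reads that came from other genes, or were lost to them, was not measured.

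The rest of the pathway was described with the same measures. On the list for complex I, the entry point for NADH, 32 of 33 measured genes (of 38 listed) were above 0 (53.4% of all genes). The median log2 fold change was 0.25. The list went by symbol and held Ndufa4 (log2 fold change 0.16), so it may not be confined to complex I. In 18 of the 33 the Sin3B KO values both exceeded the WT values (24.7% of all genes), and in 0 both were lower (19.4%). WT 1 held the lowest value in 29 of 33 (30.6% of all genes). None passed. Ndufa10 had 2466 and 1932 in Sin3B KO cells, against 1271 and 1428 in WT cells (log2 fold change 0.70, SE 0.21), and Ndufa9 had 2984 and 2617 in Sin3B KO cells, against 1625 and 2168 in WT cells (log2 fold change 0.57, SE 0.22). Of subunits and partners outside the symbol rule, 4 of 5 were measured, with 3 above 0 (53.4% of all genes). Cox7a2l, which joins complexes III and IV into supercomplexes, had 1957 and 2429 in Sin3B KO cells, against 1161 and 1753 in WT cells (log2 fold change 0.61, SE 0.25, limma Benjamini-Hochberg adjusted p = 0.548). Cyc1, the cytochrome c1 of complex III, had 1609 and 761.6 in Sin3B KO cells, against 882.5 and 826.9 in WT cells, so its log2 fold change of 0.37 (SE 0.33) rests on Sin3B KO 1; without that library it was -0.17. That of Cox7a2l was 0.31 without WT 1, and 0.91 without WT 2.

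Among assembly factors of complexes II to IV, 20 of 27 measured were above 0, against 53.4% of all genes (median log2 fold change 0.25). In 15 the Sin3B KO values both exceeded the WT values (24.7% of all genes), and in 4 both were lower (19.4%). Coa5, an assembly factor of complex IV, had 4586 and 3903 in Sin3B KO cells, against 2895 and 2628 in WT cells (log2 fold change 0.62, SE 0.19, limma Benjamini-Hochberg adjusted p = 0.548). Pet112 had 878.5 and 578.8 in Sin3B KO cells, against 435.5 and 402.6 in WT cells (log2 fold change 0.77, SE 0.28). It was on the assembly list, although its product is known for mitochondrial glutaminyl-tRNA formation. Of 3 measured assembly factors of the ATP synthase, Atpaf2 had 1028 and 994.3 in Sin3B KO cells, against 854.0 and 825.9 in WT cells (log2 fold change 0.27, SE 0.21). Tmem70 had 495.0 and 218.5 in Sin3B KO cells, against 836.9 and 290.8 in WT cells (log2 fold change -0.58, SE 0.53), an arrangement by library number like that of Cox5a.

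Of 9 measured electron and substrate carriers, 8 had a log2 fold change above 0, against 53.4% of all genes (median 0.23). In 6 both Sin3B KO values were above both WT values (24.7% of all genes). Slc25a5, an ADP/ATP carrier, had 8860 and 8436 in Sin3B KO cells, against 5892 and 7400 in WT cells (log2 fold change 0.39, SE 0.19). Etfb, of the flavoprotein that feeds electrons from fatty acid oxidation, had 4414 and 4012 in Sin3B KO cells, against 2720 and 3664 in WT cells (log2 fold change 0.41, SE 0.21). Of 12 measured regulators of nuclear respiratory genes, 8 had a log2 fold change above 0, against 53.4% of all genes (median 0.09). The Sin3B KO values were both above those of WT in 4 (24.7% of all genes) and both below in 2 (19.4%). Tfam, which packages and transcribes mitochondrial DNA, had 1725 and 1509 in Sin3B KO cells, against 1320 and 1361 in WT cells (log2 fold change 0.27, SE 0.20). Ppargc1b, a coactivator of respiratory genes, had 313.3 and 449.5 in Sin3B KO cells, against 415.0 and 584.5 in WT cells (log2 fold change -0.39, SE 0.31). In these lists 0 genes passed in either direction, and the limma Benjamini-Hochberg adjusted p of the named ones lay between 0.548 and 0.697. With 1 library left out at a time, the log2 fold change ranged from 0.20 to 0.63 for Etfb, 0.22 to 0.55 for Slc25a5, 0.37 to 0.78 for Ndufa9, 0.47 to 1.07 for Pet112, 0.17 to 0.36 for Tfam and -0.65 to -0.13 for Ppargc1b.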

How the data were processed

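Polyadenylated RNA of sorted cells was sequenced from 2 Sin3B KO and 2 WT libraries, made with the SMARTer low-input method per the labels. Bowtie, DESeq and the mm9 build are named in the submitters' processing notes, without tool versions. The authors deposited 1 table, whose library columns hold a signal, the read count normalised by 1 size factor per library. Each value was a whole multiple of its library's step within 0.01 of a step. Per the file headers, it also holds the authors' log2 fold change and its error, a test score (fold change over error), and each p-value before and after adjustment. Of 9796 rows, 552 without library values were left out. Libraries are numbered as in their titles; another label field numbers them otherwise.

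Limma 3.58.1 in R 4.3.3 was run on log2(value + 1) with a trended prior over the other 9244 genes, all of which reached a value of 1 in 2 or more libraries, and p-values were adjusted by Benjamini-Hochberg. Planned count models were not run: that 1 step is 1 read was not established for the lowest values, so the read totals given are estimates. Exon lengths came from GENCODE M21 through Ensembl identifiers (9000 genes) and transcripts were compared with BLAST 2.17.0. The test was tried on simulated data for the 9244 genes: it found 21.3% of genes given a log2 change of 1, found 82% at a log2 change of 2, and made 4.4 false calls a round. Members and lists were chosen with earlier results of these data known. Every member was named; fold changes were given for the highest level per kilobase, the 3 smallest p and the fold change nearest 0 in each complex, for isoform families, and for 2 genes per other list.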

Additional observations from a re-analysis of the deposited data

How the results depend on the processing

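The number of genes passing was 0 under 3 other scalings, pseudocounts of 0.1 and 5, no filter (the filter removed no gene), a mean of at least 500, an untrended prior and an adjusted p under 0.1, and 824 at an unadjusted p under 0.05. With the replicate block 27 genes passed, none of the 36 among them. Deviations of same-numbered libraries correlated over genes (r = 0.465), but nothing in the labels says what the number marks. Without 1 library at a time, from 0 to 1 genes passed (1 when either library numbered 2 was left out). The median log2 fold change ranged from 0.12 to 0.27 over all 36 genes, 0.28 to 0.54 in complex II, 0.09 to 0.38 in complex III, -0.13 to 0.20 in complex IV and 0.03 to 0.26 in the ATP synthase.

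Upper quartile scaling, which placed the median of all genes at -0.08 instead of 0.03, gave 0.06 over the 36 genes, 0.04 for the ATP synthase and -0.09 for complex IV; scaling by the total gave -0.06 for complex IV. With genes under a mean of 500 left out, complex IV was at 0.25. With the exon length trend removed, complex III was at 0.07 and complex IV at -0.14. Complex II stayed between 0.28 and 0.54 in every setting run. Near-zero genes changed sign: Cox6a1 (-0.06 with total scaling, -0.09 with upper quartile scaling, -0.14 without the length trend, -0.24 to 0.29 without 1 library), Atp5j2 (-0.07, -0.10, -0.07, and -0.23 to 0.26 likewise) and Uqcrh (-0.03 without the length trend). Without 1 library, sign also changed for Uqcrh (-0.06 to 0.30), Atp5g3 (-0.01 to 0.27), Cox6b2 (-0.43 to 0.04), Cyc1 (-0.17 to 0.91) and Tmem70 (-1.34 to 0.18). The cause was not tested. The planned edgeR and DESeq2 alternatives were not run. With 2 libraries per group, the median gene's confidence interval spans a 1.51-fold difference either way.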
